A study of Mus musculus with 54 samples.

Results

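Albumin and 9 other transcripts that hepatocytes make in large amounts were followed in the hearts and livers of mice fed a high-fat diet. The 10 genes were Alb, Ttr, Fabp1, Ahsg, Rbp4, Trf, Apoh, Hpx, Gc and Serpina3k. They are 10 of the 54356 genes in each table, were found by gene name, and were chosen by their levels in these hearts, because those levels differed between hearts. The heart levels are therefore described without a test, whereas the liver levels, which did not enter the choice, were tested between genotypes. All 10 genes had a mean normalized count of at least 10 in the hearts and in the livers.

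Each tissue was measured in 3 Mrps12+/+ mice, 3 Mrps12ep/ep mice and 3 Mrps12ha/ha mice, all C57BL/6, 20 weeks old and on a diet with 42% of its energy from fat. Mrps12 encodes a protein of the small subunit of the mitochondrial ribosome, the ep allele makes mitochondrial translation error-prone and the ha allele makes it hyper-accurate. Both mutants were homozygous, were bred from heterozygotes and were set against the same litter-mate matched Mrps12+/+ mice, so that the comparisons with Mrps12+/+ are not independent. No group on another diet was used here, and the labels do not say whether a heart and a liver with the same number came from one mouse. RNA came from whole organs, and 3 technical libraries per mouse and tissue had been pooled into one column. The columns held 11202866 to 51480271 reads in the hearts and 21238036 to 81518399 in the livers. A normalized count is the number of reads of a gene after scaling for depth within its tissue, and levels set across the tissues were put on a share of all counts of the library.

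Hepatocytes release most of the proteins of the blood plasma, and their RNA is dominated by a small number of transcripts for such proteins. Albumin carries fatty acids and holds the oncotic pressure of plasma. Transthyretin (Ttr) and retinol-binding protein 4 (Rbp4) circulate as a complex that carries thyroxine and retinol. Transferrin (Trf) carries iron, hemopexin (Hpx) binds free heme, and the product of Gc binds vitamin D and actin. Fetuin-A (Ahsg) inhibits the calcification of soft tissue, apolipoprotein H (Apoh) binds phospholipids, and Serpina3k is a serine protease inhibitor. Fabp1 is the exception, since liver fatty acid-binding protein stays in the cytosol of the cell and is not secreted. Serpina3k belongs to a cluster of near-identical paralogs, so that its counts may be shared with them and are uncertain.

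The transcription of these genes in hepatocytes depends on liver-enriched factors, among them HNF1 and FOXA. Promoter sequences from RefSeq on GRCm38.p6, from 250 bases before to 50 bases after the start of transcription, were matched for 7 of the 10 genes. The letters GTTAAT, a half-site of HNF1, were searched on both strands and lay in 3 of the 7 (Alb, Fabp1 and Gc) and in 7.10% of all 32851 promoters. The letters TGTTTAC or TGTTTGC, a core that FOXA factors bind, were searched in the same way and lay in 5 of the 7 (Alb, Fabp1, Apoh, Ahsg and Rbp4) and in 8.48% of all promoters. In the sequences shown no match of one motif overlapped a match of the other. A match of letters is a description and not a binding site. The promoters of the 3 genes with the HNF1 half-site, whose levels followed one another over the hearts, are shown with that of Ahsg, whose levels did not, and capitals mark the matches. Apoh was matched without the half-site and also followed Alb over the hearts, and nothing about the factors is drawn from these letters. Alb is at chr5:90460620-90460919 on the plus strand, Fabp1 at chr6:71199629-71199928 on the plus strand, Gc at chr5:89457849-89458148 on the minus strand and Ahsg at chr16:22891765-22892064 on the plus strand.
Alb: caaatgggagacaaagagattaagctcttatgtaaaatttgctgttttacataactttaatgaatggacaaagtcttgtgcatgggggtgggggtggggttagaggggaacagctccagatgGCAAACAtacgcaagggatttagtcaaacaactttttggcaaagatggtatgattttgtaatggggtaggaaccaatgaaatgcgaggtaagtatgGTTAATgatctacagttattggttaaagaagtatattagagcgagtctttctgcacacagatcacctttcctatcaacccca
Fabp1: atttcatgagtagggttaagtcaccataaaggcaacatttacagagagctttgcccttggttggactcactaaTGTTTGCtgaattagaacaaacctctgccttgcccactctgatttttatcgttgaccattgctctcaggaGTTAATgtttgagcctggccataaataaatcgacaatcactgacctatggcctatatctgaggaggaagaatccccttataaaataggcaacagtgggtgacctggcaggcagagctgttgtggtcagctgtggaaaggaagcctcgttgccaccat
Gc: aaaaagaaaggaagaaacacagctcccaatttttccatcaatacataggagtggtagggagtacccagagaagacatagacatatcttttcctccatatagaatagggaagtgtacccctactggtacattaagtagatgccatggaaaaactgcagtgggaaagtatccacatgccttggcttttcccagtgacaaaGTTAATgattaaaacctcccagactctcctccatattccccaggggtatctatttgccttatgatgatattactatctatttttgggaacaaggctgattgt
Ahsg: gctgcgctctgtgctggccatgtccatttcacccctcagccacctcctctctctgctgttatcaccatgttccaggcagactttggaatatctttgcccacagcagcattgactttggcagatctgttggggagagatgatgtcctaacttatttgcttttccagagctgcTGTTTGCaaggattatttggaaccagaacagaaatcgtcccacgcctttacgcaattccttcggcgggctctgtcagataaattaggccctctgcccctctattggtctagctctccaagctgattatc
The HNF1 half-site began 32 bases before the start in Alb, 52 in Gc and 107 in Fabp1. The FOXA core began 128 bases before the start in Alb, where it lay on the opposite strand, 177 in Fabp1 and 79 in Ahsg. These starts are those of RefSeq. The GENCODE vM21 annotation used for the counts begins the gene at another base for Alb (90460897), Fabp1 (71199827) and Ahsg (22891277).

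In the hearts, 7 of the 10 transcripts were high in the same 3 animals and low in the same 2, and the range was wide. Alb was at 9895, 2754 and 4116 normalized counts in Mrps12+/+ hearts 1, 2 and 3. It was at 7737, 65.5 and 568.5 in Mrps12ep/ep hearts and at 1428, 9879 and 2589 in Mrps12ha/ha hearts. Mrps12+/+ heart 1, Mrps12ha/ha heart 2 and Mrps12ep/ep heart 1 were thus high, Mrps12ep/ep hearts 2 and 3 were low, and each genotype overlapped the others. The highest heart held 151-fold more Alb than the lowest, and 17.4-fold more once Mrps12ep/ep heart 2 was left out.

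Ttr followed the same order of hearts as Alb from the highest to the lowest, with 1049.7, 366.0 and 395.6 counts in Mrps12+/+ hearts, 884.6, 21.5 and 95.4 in Mrps12ep/ep hearts and 266.9, 1045 and 343.7 in Mrps12ha/ha hearts. Fabp1 did so too, with 1423, 415.3 and 449.0 counts in Mrps12+/+, 932.2, 5.80 and 64.5 in Mrps12ep/ep and 289.0, 1172 and 345.8 in Mrps12ha/ha hearts. The 5.80 counts of Fabp1 in Mrps12ep/ep heart 2 stood for 10 reads. The secreted carrier and the cytosolic binding protein therefore shared one order over all 9 hearts.

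Apoh, Hpx, Gc and Serpina3k kept the same 3 hearts at the top and the same 2 at the bottom. Apoh ranged from 9.30 to 254.0 counts with a median of 69.8, and Hpx from 7.5 to 579.9 with a median of 191.6. Gc ranged from 11.0 to 1344 with a median of 256.6, and Serpina3k from 7.5 to 1288 with a median of 241.4. The top of this order was not fixed, since Hpx and Gc were highest in Mrps12ha/ha heart 2 and Apoh and Serpina3k in Mrps12+/+ heart 1. The lowest value of each of the 4 was that of Mrps12ep/ep heart 2.

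**Figure D1:**
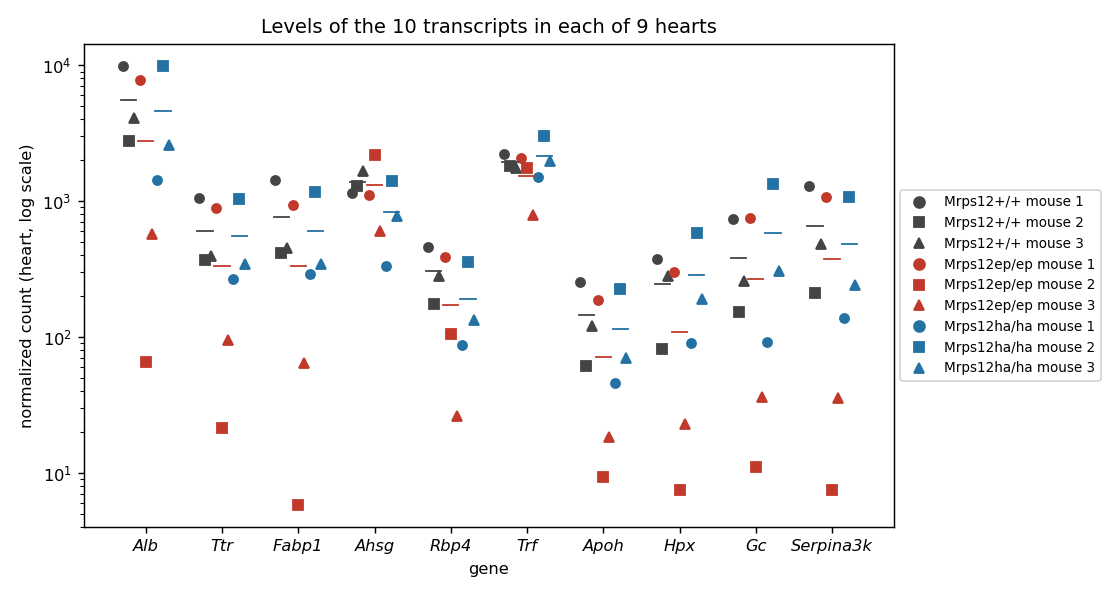
Normalized counts (log axis) of the 10 transcripts in each of 9 hearts, with 1 point per heart, colour for genotype, symbol for mouse number and short lines for the mean of 3 hearts. Mrps12ep/ep heart 2 (red square) lies lowest for 7 transcripts, from Alb at 65.5 to Fabp1 at 5.80, but highest for Ahsg at 2199.6.

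Rbp4, Trf and Ahsg departed from this order. Rbp4 was at 459.8, 174.8 and 282.4 counts in Mrps12+/+ hearts, 388.3, 104.4 and 26.3 in Mrps12ep/ep hearts and 86.5, 356.4 and 132.1 in Mrps12ha/ha hearts. Its 3 highest hearts were those of Alb, but Mrps12ep/ep heart 2, the lowest for Alb, was above Mrps12ha/ha heart 1 and Mrps12ep/ep heart 3. Trf was at 2215, 1800.5 and 1762 counts in Mrps12+/+, 2071, 1756.5 and 795.5 in Mrps12ep/ep and 1496.5, 3041 and 1959 in Mrps12ha/ha hearts, a span of 3.82-fold. It kept the 3 highest hearts of Alb in another order, while Mrps12ep/ep heart 2 lay close to Mrps12+/+ heart 3. Ahsg was at 1145, 1300.4 and 1678 counts in Mrps12+/+, 1117, 2199.6 and 604.8 in Mrps12ep/ep and 331.3, 1395 and 783.5 in Mrps12ha/ha hearts. The heart with the least Alb was thus the one with the most Ahsg, and Mrps12ha/ha heart 1 had the least.

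All 9 hearts held the transcripts at a small share of the liver level. As a share of all counts of the library, Alb in the hearts was between 0.0029% and 0.389% of its mean over the 9 livers, and the median of the 8 transcripts other than Ahsg and Trf was between 0.00627% and 0.452%. For Trf the share ran from 0.220% to 0.802% and for Ahsg from 0.130% to 0.969%. In bulk RNA, fewer cells of a type and less RNA per cell cannot be told apart. In counts per 1000000 counts of the library and per kilobase of the longest coding transcript, the median level over the hearts was highest for Alb at 42.2, followed by Fabp1 and Ahsg at 23.4 each and Trf at 23.0, and lowest for Apoh at 1.77. The levels varied over the hearts by more than these medians differed, so that Fabp1, Ahsg and Trf cannot be ordered. In the livers the median on the same scale was 40400 for Alb, 13500 for Fabp1, 6090 for Ttr, 5060 for Ahsg and 4230 for Trf. Gc followed at 3280, Serpina3k at 3240, Rbp4 at 2480, Hpx at 2010 and Apoh at 1450, and Gc and Serpina3k differed by less than their spread over livers.

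The ratio of 2 transcripts within a library does not depend on its scaling. In the livers Apoh was 1.96% to 2.61% of the Alb count, and in the hearts other than Mrps12ep/ep heart 2 it was 2.23% to 3.22%. Apoh was above the liver range in 5 of 9 hearts. Its exact 95% binomial interval was clear of the range in 1, Mrps12ep/ep heart 2. Serpina3k was 5.74% to 13.7% of Alb in the livers and lay within that range in 8 of 9 hearts. Fabp1 was 5.74% to 14.0% of Alb in the livers and within that range in 6 of 9 hearts, the other 3 being above it, of which 1 (Mrps12ha/ha heart 1) had an exact 95% binomial interval clear of it. Hpx lay within the liver range in 9 of 9 hearts, but that range, 2.85% to 20.7%, was set at its top by Mrps12+/+ liver 3 alone. Gc was within the liver range of 6.39% to 10.8% in 3 of 9 hearts, and of those outside it 1 (Mrps12ha/ha heart 2) had an interval clear of it. Ttr was at 7.80% to 11.2% of Alb in the livers and above that range in 6 of 9 hearts, 5 of them with an interval clear of it, at up to 18.7% in Mrps12ha/ha heart 1 and 32.8% in Mrps12ep/ep heart 2. Alb itself was thus lower against Ttr in most hearts than in the livers.

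In Mrps12ep/ep heart 2 these ratios rested on 113 reads of Alb. Ttr had 37 reads there, or 32.7% of Alb with an exact 95% binomial interval of 22.0% to 47.8%, which lies above the liver range. Fabp1 had 10 reads, or 8.85% of Alb with an interval of 4.13% to 16.9%, which covers the liver range. The interval for Apoh, on 16 reads, ran from 7.83% to 24% and lay above the liver range. These intervals cover counting error only.

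**Figure D2:**
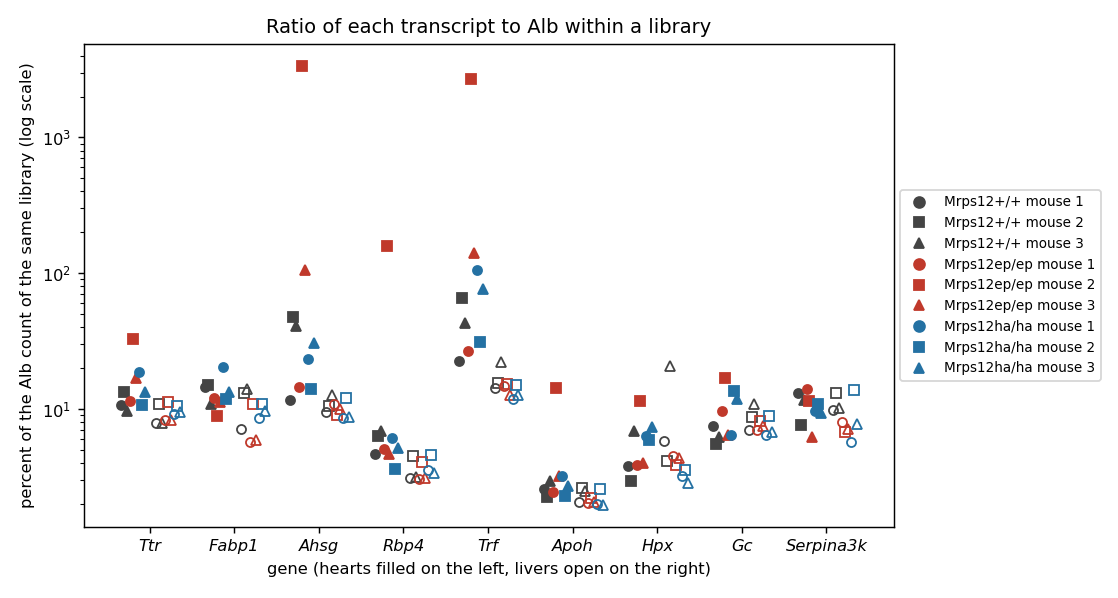
Count of each of 9 transcripts as a percent of the Alb count of the same library (log axis), for 9 hearts (filled, left) and 9 livers (open, right), with colour for genotype and symbol for mouse number. Apoh in the hearts other than Mrps12ep/ep heart 2 spans 2.23% to 3.22% beside 1.96% to 2.61% in the livers. Ahsg and Trf in those same hearts reach 106% and 140%. In Mrps12ep/ep heart 2, on 113 reads of Alb, Apoh is at 14.2%, Ahsg at 3360% and Trf at 2680%.

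Ahsg and Trf did not keep their liver ratios to Alb in most hearts. Ahsg was 8.6% to 12.6% of Alb in the livers and above that range in 8 of 9 hearts, with 11.6% in Mrps12+/+ heart 1 as the one heart within it. Trf was 11.9% to 22.3% of Alb in the livers and above that range in 9 of 9 hearts, at 22.4% in Mrps12+/+ heart 1, where the interval of 21.4% to 23.4% reached the range, and 2680% in Mrps12ep/ep heart 2. Rbp4 was 3.03% to 4.6% of Alb in the livers and above that range in 8 of 9 hearts, but its exact 95% binomial interval was clear of the range in only 3, Mrps12+/+ hearts 2 and 3 and Mrps12ep/ep heart 2. Against Ttr, its partner in plasma, Rbp4 was held within 35.6% to 44% over the 9 livers, while the hearts other than Mrps12ep/ep heart 2 ran from 27.6% to 71.4%. Of the 9 hearts, 3 lay within that liver range, 3 above it and 3 below it. Also against Ttr, Ahsg was above its liver range in 5 of 9 hearts and within it in 4. Trf was above its liver range against Ttr in 7 of 9 hearts and within it in 2.

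To set these departures on the scale of counts, the Alb count of each heart was multiplied by the median liver ratio of the gene to Alb and taken away from the level. What was left of Ahsg was 152, 1024 and 1265 counts in Mrps12+/+ hearts, 341, 2193 and 548 in Mrps12ep/ep hearts and 188, 404 and 524 in Mrps12ha/ha hearts. The remainder of Ahsg spread widely within each genotype, and the 3 genotypes overlapped. In Mrps12+/+ heart 1 it was not separate from 0, since with the highest liver ratio in place of the median it was -103. The remainder of Trf was 763, 1397 and 1158 counts in Mrps12+/+, 936, 1747 and 712 in Mrps12ep/ep and 1287, 1592 and 1579 in Mrps12ha/ha hearts. With the highest liver ratio it ran from 11.0 in Mrps12+/+ heart 1, where it was not separate from 0, to 1742 in Mrps12ep/ep heart 2. That of Rbp4 lay between 7.27 counts in Mrps12ep/ep heart 3 and 145 in Mrps12+/+ heart 3. With the highest liver ratio it was -97.9 in Mrps12ha/ha heart 2, 0.159 in Mrps12ep/ep heart 3 and 4.79 in Mrps12+/+ heart 1, so that it was not separate from 0 in those hearts. Nor was it separate from 0 in Mrps12ep/ep heart 1 or in Mrps12ha/ha hearts 1 and 3. There the exact 95% binomial interval of the ratio of Rbp4 to Alb reached the liver range. For Apoh the Alb-scaled part made up 14.6% to 92.8% of the heart level with a median of 76.7%, against medians of 33.2% for Ahsg and 22.4% for Trf.

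**Figure D3:**
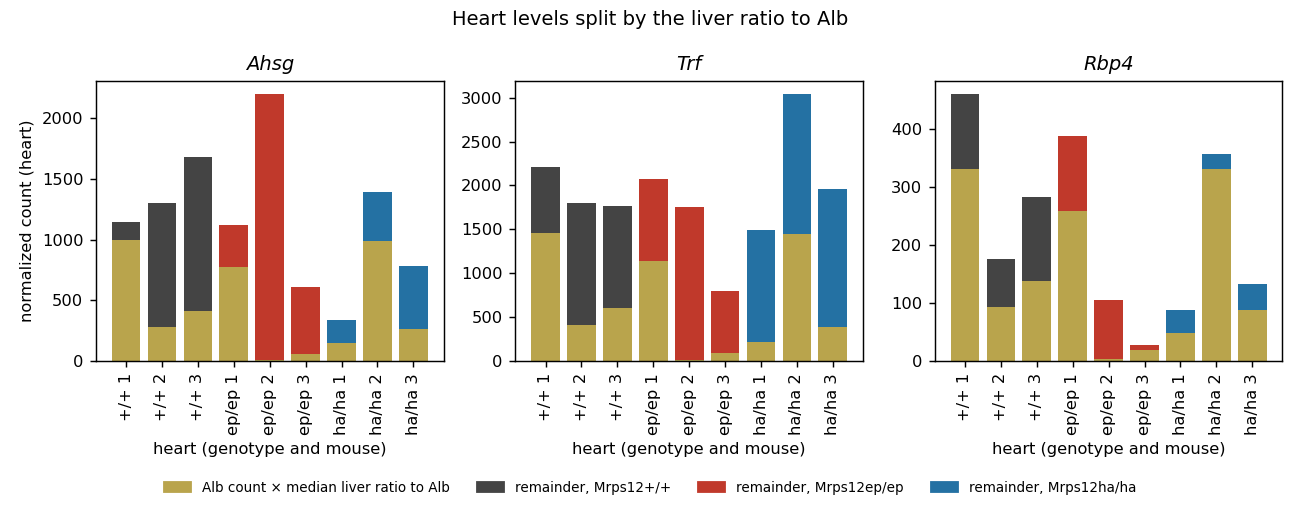
Normalized counts of Ahsg, Trf and Rbp4 in 9 hearts, as bars split into the Alb count times the median liver ratio (ochre) and the remainder (coloured by genotype). In Mrps12ep/ep heart 2 nearly the whole bar is remainder, 2193 counts for Ahsg and 1747 for Trf, while in Mrps12+/+ heart 1 the Alb-scaled part of Ahsg is 86.7% of its level.

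The order of hearts was shared by many other hepatocyte transcripts, on lists that were written with earlier results of these data known. Of the 10 genes, 9 had their 3 highest values in Mrps12+/+ heart 1, Mrps12ep/ep heart 1 and Mrps12ha/ha heart 2, the exception being Ahsg, and 7 had their 2 lowest in Mrps12ep/ep hearts 2 and 3 as well. Among the 16044 gene names with a mean of at least 10 in the hearts, 3.95% had these 3 hearts highest and 0.916% met both criteria. The 3 and the 2 hearts were read from the 10 genes themselves, so their counts beside these shares are a description and no test. Of 46 other plasma protein genes on a list, 44 passed that mean and 33 of them had the same 3 hearts highest. So did 27 of 34 genes on a list of hepatocyte enzymes and transporters, which also holds the transcription factor Hnf4a. Apoa1, the main protein of high-density lipoprotein, ranged from 13.9 to 1540 counts over the hearts, and Cps1, which starts the urea cycle, from 4.10 to 339 counts. Of 12 transcription factors of hepatocytes, 6 passed the mean and 2 of those kept the 3 highest and the 2 lowest hearts of Alb. One was Hnf4a, counted on both lists, at 119 counts in Mrps12ep/ep heart 1 and at 1.20 in Mrps12ep/ep heart 2. Cebpa, Cebpb, Nr1h4 and Nr5a2 did not keep that order, and the sum of the 12 ran from 1114 to 2053 counts. Among plasma protein genes that did not keep this order, as Ahsg, were Vtn, at 745 to 1733 counts, Rarres2, at 670 to 1484, and Itih4, at 71.8 to 531.5. The median of the list of other plasma proteins was 0.00519% to 0.440% of the liver level over the hearts, beside 0.00627% to 0.452% for the 8 transcripts.

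**Figure D4:**
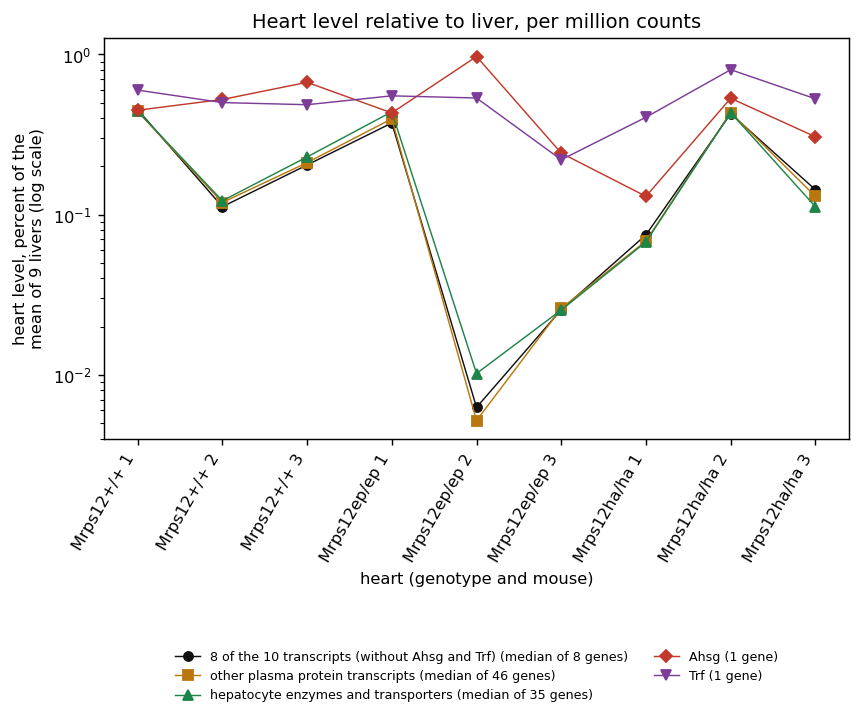
Heart level as a percent of the mean of 9 livers (log axis, both as shares of all counts of the library) in each of 9 hearts, for the median of 8 of the transcripts, the medians of 46 other plasma protein genes and of 35 hepatocyte enzyme and transporter genes, and for Ahsg and Trf alone. The list of 35 also holds Hnf4a. The 3 medians run together, from 0.452% in Mrps12+/+ heart 1 to 0.00627% in Mrps12ep/ep heart 2 for the 8 transcripts, while Ahsg is highest in Mrps12ep/ep heart 2 at 0.969%.

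The genes outside the 10 whose profile over the 9 hearts lay closest to the mean profile of the 10 were Bhmt2, Hgd, Cyp3a11, H2-Q10, Cyp2j5, Cyp2c68, Acaa1b, Itih1, Aldh8a1 and Apof. Their root-mean-square difference from that profile was 0.232 (Bhmt2) to 0.346 (Apof) on the log2 scale. Within the 10, Apoh was at 0.134, Ttr at 0.367, Hpx at 0.499, Gc at 0.636 and Serpina3k at 0.805. Rbp4 was at 0.834, Fabp1 at 0.918, Trf at 1.23 and Ahsg at 1.64. Alb itself was at 0.774, further from the mean profile than each of the 10 other genes. The mean profile takes in Rbp4, Trf and Ahsg, which departed from the order of Alb, so it is not the profile of Alb. H2-Q10, which encodes a secreted class I histocompatibility protein of liver, ran from 45.2 to 746 counts over the hearts and from 123531 to 167216 over the livers. Each of these 10 genes was at 5078 counts or more in every liver, and 3 of them (Hgd, Cyp3a11 and Itih1) were on the lists of hepatocyte genes.

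The sums of Kupffer cell, atrial, mesothelial and white adipocyte markers did not keep the order of Alb over the hearts. The summed count of 6 Kupffer cell genes was 272 to 959, highest in Mrps12ep/ep heart 2. Clec4f, the defining marker of Kupffer cells, was instead lowest in that heart at 15.7 counts and highest in Mrps12+/+ heart 1 at 56.0, as Alb was. Clec4f did not follow Alb in Mrps12ep/ep heart 1, where Alb was high and Clec4f was at 19.8 counts. None of the 5 Kupffer genes that passed the mean had the 3 highest hearts of Alb. The sum of 6 genes of atrial cardiomyocytes was 8219, 168607 and 123495 in Mrps12+/+ hearts, 1759, 395401 and 95918 in Mrps12ep/ep hearts and 5290, 4645 and 10815 in Mrps12ha/ha hearts. The sum of 8 mesothelial genes was 443 to 3788 and was also highest in Mrps12ep/ep heart 2, the heart with the most Ahsg and the least Alb. Of the defining atrial markers, Sln was at 3.0 to 16198 counts and Myl7 at 21.8 to 51454. The sum of 7 white adipocyte genes was 6883 in Mrps12+/+ heart 3 and 9.0 to 1280 in the others, and Hp, a plasma protein gene, was at 2804 counts in that same heart and at 49.0 to 670 in the others. The part of these cell types in the levels of Ahsg, Trf and Rbp4 was not tested. The cardiomyocyte genes Myh6 and Tnnt2 were abundant in each heart, at no less than 994852 and 272555 counts.

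Between genotypes the heart levels are given as they were. For each of the 10 genes the 3 Mrps12ep/ep hearts overlapped the 3 Mrps12+/+ hearts, whereas 8.03% of 16057 genes did not overlap in that comparison. The same 0 of 10 held for Mrps12ha/ha against Mrps12+/+, where 21.2% of genes did not overlap, and for Mrps12ha/ha against Mrps12ep/ep, where 16.6% did not. Since these levels chose the genes, nothing is read from those counts. The mean of Alb was 5588 ± 3792 counts (SD, n = 3) in Mrps12+/+, 2790.2 ± 4291 in Mrps12ep/ep and 4632 ± 4581 in Mrps12ha/ha hearts, so that the SD was near or above the mean in the mutants. On the log2 scale of the count plus 1, the median difference of the 10 genes was -2.13 in Mrps12ep/ep against Mrps12+/+ hearts and became -1.13 without Mrps12ep/ep heart 2 and -3.69 without Mrps12ep/ep heart 1. For Mrps12ha/ha against Mrps12+/+ it was -0.42, and it was 0.12 without Mrps12+/+ heart 1, 0.05 without Mrps12ha/ha heart 1, -1.07 without Mrps12ha/ha heart 2 and -0.83 without Mrps12+/+ heart 2. For Mrps12ha/ha against Mrps12ep/ep it was 2.07, and it was 0.68 without Mrps12ep/ep heart 2, 3.62 without Mrps12ep/ep heart 1 and 1.29 without Mrps12ha/ha heart 2.

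In the livers the 10 transcripts were abundant in each animal, and no difference between genotypes passed the threshold. The test was limma on the log2 of the normalized count plus 1, with the 3 genotypes in one fit and p-values adjusted over 15314 genes. None of the 10 genes had an adjusted p under 0.05 in any of the 3 comparisons, and none had an unadjusted p under 0.05. The background was as low, since 1 gene was called in each comparison, 0.00653% of those tested, although 9.74%, 14.1% and 8.62% of genes had an unadjusted p under 0.05 for Mrps12ep/ep against Mrps12+/+, Mrps12ha/ha against Mrps12+/+ and Mrps12ha/ha against Mrps12ep/ep. The gene called was Cyp2a22 against Mrps12+/+ in both mutants and Gm10524 between the mutants, named after their values were seen. Of the list of 46 other plasma protein genes and of the 35 hepatocyte enzyme and transporter genes (with Hnf4a), 0 were called in each of the 3 comparisons in limma. In the same order of comparisons, 5, 5 and 0 of the 46 had an unadjusted p under 0.05 in limma. Of the 35 there were 14, 9 and 6. The lists were written with earlier results known, so these counts are a description.

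The median log2 difference of the 10 genes was 0.17 for Mrps12ep/ep against Mrps12+/+, with 7 higher and 3 lower, beside -0.01 over all genes tested. It was 0.16 for Mrps12ha/ha against Mrps12+/+, again with 7 higher and 3 lower, beside -0.02 over all genes. Between the mutants it was -0.03. Another scaling moved these medians. With quantile normalization the median of the 10 genes was 0.06 for Mrps12ep/ep and -0.0019 for Mrps12ha/ha against Mrps12+/+, and with limma-voom on whole reads it was 0.12 and 0.08. In the fit with limma-voom the median of all genes moved to -0.10 for Mrps12ha/ha against Mrps12+/+, and differences of that size are to be read relative to it.

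Some livers stood apart in markers of other cell types. The summed count of 10 skeletal muscle genes was 22572 and 28809 in Mrps12+/+ livers 1 and 2 and 32.2 to 164.5 in the other 7. Mrps12+/+ liver 3 was highest for the sum of 5 cholangiocyte genes, at 12054 counts against 1334 to 2654, and of 7 white adipocyte genes, at 8359 against 852 to 3772. The adipocyte markers Adipoq and Plin1 went against that sum. They were at 118.1 and 110.8 counts in Mrps12+/+ liver 2 and at 2.4 and 1.6 in Mrps12+/+ liver 3. Mrps12ha/ha liver 3 was highest for 9 cardiomyocyte genes, at 8365 against 46.3 to 507. The main differences from Mrps12+/+ are given also without single Mrps12+/+ livers, and the part of these markers in them was not tested.

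Alb was at 3897249, 3373921 and 2890195 counts in Mrps12+/+ livers, at 4430103, 4148208 and 4479624 in Mrps12ep/ep livers and at 4416041, 3725843 and 4510912 in Mrps12ha/ha livers. The 3 Mrps12ep/ep livers lay above the 3 Mrps12+/+ livers, whereas Mrps12ha/ha liver 2 fell among the latter. The log2 difference of Mrps12ep/ep against Mrps12+/+ was 0.37 ± 0.63 (SE), with an adjusted p of 0.869 in limma and a range of 0.547 to 1.0 over the alternative settings. Quantile normalization made the difference 7.1e-15, because it gives the most abundant gene the same value in all livers, so that setting cannot inform on Alb. Without Mrps12+/+ liver 1, 2 or 3 the difference was 0.48, 0.37 or 0.26. This SE follows the spread that the fit expects of the most abundant genes, and without the intensity trend it was 0.14, with an unadjusted p of 0.028 and an adjusted p of 0.547 in limma. The exact permutation test of 3 against 3 livers, two-sided, gave p = 0.1, the smallest that this design allows.

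Ttr was at 303974, 366324 and 228603 counts in Mrps12+/+ livers, at 365825, 466404 and 370577 in Mrps12ep/ep livers and at 403183, 389775 and 424004 in Mrps12ha/ha livers. The 3 Mrps12ha/ha livers lay above the Mrps12+/+ livers, and Mrps12ep/ep liver 1 overlapped them. The log2 difference of Mrps12ha/ha against Mrps12+/+ was 0.46 ± 0.25 (SE), with an adjusted p of 0.443 in limma, and it was 0.49, 0.62 or 0.28 without Mrps12+/+ liver 1, 2 or 3. Its partner Rbp4 was at 120857, 151064 and 90338 counts in Mrps12+/+ livers and at 156214, 171325 and 151036 in Mrps12ha/ha livers, which overlapped. The log2 difference was 0.43 ± 0.21 (SE), with an adjusted p of 0.396 in limma, and it was 0.45, 0.61 or 0.24 without Mrps12+/+ liver 1, 2 or 3. For both genes Mrps12+/+ liver 3 was the lowest of the 9.

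Hpx had the widest span of the 10 in the livers, 4.67-fold. It was at 224340, 137884 and 599704 counts in Mrps12+/+ livers, at 197630, 160116 and 193346 in Mrps12ep/ep livers and at 140834, 132904 and 128485 in Mrps12ha/ha livers. One animal, Mrps12+/+ liver 3, was far above the rest, and the Mrps12ha/ha livers lay below the Mrps12ep/ep livers. The log2 difference of Mrps12ha/ha against Mrps12+/+ was -0.98 ± 0.44 (SE), with an adjusted p of 0.359 in limma, and it was -1.1, -1.45 or -0.39 without Mrps12+/+ liver 1, 2 or 3. For Mrps12ep/ep against Mrps12+/+ it was -0.53 ± 0.44 (SE), with an adjusted p of 0.701 in limma, and it was -0.65 or -1.0 without Mrps12+/+ liver 1 or 2 and turned to 0.056 without liver 3. Hemopexin is an acute phase protein, and the summed count of 18 acute phase genes was 4706833 in Mrps12+/+ liver 3 and 778448 to 959715 in the other 8 livers. The part of this in the other differences was not tested.

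Of the remaining genes, Ahsg and Apoh were higher in all 3 Mrps12ep/ep livers than in the 3 Mrps12+/+ livers, by 0.26 ± 0.23 and 0.19 ± 0.13 (SE) on the log2 scale, with adjusted p-values of 0.716 and 0.651 in limma. Without Mrps12+/+ liver 3 these differences were 0.27 and 0.11. Ahsg was also higher in all 3 Mrps12ha/ha livers than in the Mrps12+/+ livers, by 0.17 ± 0.23 (SE), with an adjusted p of 0.767 in limma. In all, 3 of the 10 genes (Alb, Ahsg and Apoh) had livers that did not overlap for Mrps12ep/ep against Mrps12+/+, beside 12.8% of all genes. For Mrps12ha/ha against Mrps12+/+ there were 2 (Ttr and Ahsg) beside 19.9%, and between the mutants 1 (Hpx) beside 17.8%. Trf and Gc were the most even over the 9 livers, each with 1.24-fold between the highest and the lowest, and their ranges were 522109 to 649883 and 270813 to 335028 counts. Serpina3k, with 253498 to 509231 counts, and Fabp1, with 254498 to 449023, overlapped between the genotypes in each comparison.

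**Figure D5:**
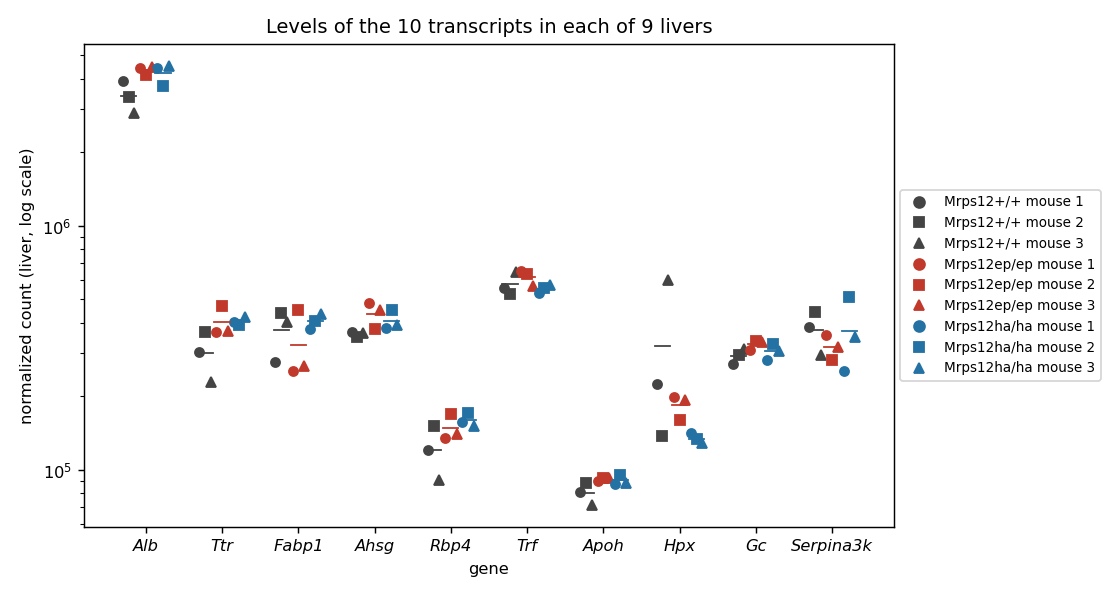
Normalized counts (log axis) of the 10 transcripts in each of 9 livers, with 1 point per liver, colour for genotype, symbol for mouse number and short lines for the mean of 3 livers. The highest liver exceeds the lowest by 1.24-fold for Trf and Gc and by 4.67-fold for Hpx, whose value of 599704 in Mrps12+/+ liver 3 stands apart.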

How the data were processed

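RNA of whole hearts and livers was sequenced on the Illumina HiSeq platform with the TruSeq protocol, and 54 libraries were pooled into 18 columns, 1 per mouse and tissue. Per the labels and the methods, the authors trimmed reads with Trim Galore 0.4.1 and cutadapt 1.18, checked them with FastQC 0.11.8, quantified transcripts with Salmon 1.1.0 on GENCODE vM21 (GRCm38.p6), left out mitochondrial transcripts and deposited gene counts divided by DESeq2 size factors, separately per tissue. The deposited tables of the authors' own comparisons hold fold changes and p-values and were not used. In each column 100.0% of the low values tested were whole multiples of one step within 0.1 reads, which gave the read totals.

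Each liver comparison was fitted with limma 3.58.1 in R 4.3.3 (lmFit, then eBayes with an intensity trend) on log2(normalized count + 1), for genes with a mean of at least 10, with Benjamini-Hochberg adjustment over all genes tested and a threshold of 0.05. The main fit did not treat these values as counts and used no count model. The limma-voom setting took the whole reads recovered from the step of each column. Other settings tried were pseudocounts of 0.1 and 8, a mean of 50 or no minimum, quantile normalization, array weights, fits of only the 2 genotypes compared, a replicate block, and leaving out each liver. The fits with limma-voom and without the intensity trend were chosen after seeing the data. Other values came from Python 3.11.15 with pandas 2.3.3 and scipy 1.17.1.

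The 10 genes and the gene lists were chosen with earlier results of these data known. Named are the 10 genes, members of the lists, and the 10 other genes closest in profile over the hearts (smallest root-mean-square difference of centred log2 values). The 2 genes called in the livers, Cyp2a22 and Gm10524, lie outside this rule and were named after their values were seen. The limma p-values use a spread between mice that is pooled over the 3 genotypes and drawn toward the intensity trend of all genes. Each group held 3 mice.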

Additional observations from a re-analysis of the deposited data

How the results depend on the processing

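Each of the 3 counts of the 10 genes called in the livers, 0 in limma, was 0 under all 19 alternative settings, with the replicate block among them (0, 0 and 0). The replicate numbers were not taken as pairs, since the deviations of livers with the same number correlated between -0.133 and 0.164, and the block moved the number of all genes called from 1, 1 and 1 to 9, 7 and 6 for Mrps12ep/ep against Mrps12+/+, Mrps12ha/ha against Mrps12+/+ and Mrps12ha/ha against Mrps12ep/ep. Without Mrps12+/+ liver 3 it moved to 72, 92 and 10, and without Mrps12+/+ liver 2 to 1, 92 and 1. Over the 30 differences of single genes between livers, 5 changed sign in another setting and 8 when a liver was left out, and the cause was not tested. With quantile normalization the log2 difference of Mrps12ha/ha against Mrps12+/+ was -0.0038 for Fabp1 and -0.077 for Gc, and that of Mrps12ha/ha against Mrps12ep/ep was -0.18 for Ttr and 0.038 for Apoh. Array weights gave 0.012 for Trf and limma-voom -0.017 for Gc in Mrps12ha/ha against Mrps12+/+.

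With each liver left out, the log2 difference of Mrps12ep/ep against Mrps12+/+ ranged from -1.0 to 0.056 for Hpx. For Mrps12ha/ha against Mrps12+/+ it ranged from -0.056 to 0.27 for Fabp1, from -0.31 to 0.20 for Serpina3k and from -0.12 to 0.032 for Trf. For Mrps12ha/ha against Mrps12ep/ep it ranged from -0.10 to 0.037 for Alb, from -0.056 to 0.0066 for Apoh, from -0.088 to 0.42 for Serpina3k and from -0.036 to 0.14 for Ttr.

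In the hearts the median over the 10 genes of the fold between the highest and the lowest heart was 63.1, and 17.4 to 63.1 when each heart was left out, the low value being that without Mrps12ep/ep heart 2. On a share of the column total it was 55.2. With Ttr in place of Alb as the reference, the median heart ratio over the median liver ratio went from 1.44 to 0.927 for Hpx and from 1.35 to 0.721 for Serpina3k, while it was 3.02 and 1.97 for Ahsg and 4.46 and 3.45 for Trf. For Rbp4 it went from 1.52 to 1.13. Ratios in Mrps12ep/ep heart 2 are limited by its 113 reads of Alb, and 3 mice per group limit every comparison.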
